A study of Homo sapiens with 10 samples.

Results

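The RNA of 7 genes of lipoprotein uptake was followed in PC3 cells given an agonist of the liver X receptors (LXRs): the ubiquitin ligase gene MYLIP, the deubiquitinase gene USP2, and the receptor genes VLDLR, LRP8, LRP1, SCARB1 and SORL1. They were chosen by symbol among the 62656 genes of the deposited table, and each symbol was found there exactly once. PC3 is a human prostate cancer line established from a bone metastasis. After a night of starvation the cells received 1 µM of GW3965, a synthetic LXR agonist, or its vehicle DMSO for 24 h, in 5 libraries per condition and with no genetic change in either. The labels do not say whether the libraries came from separate cultures, so the p-values measure the spread between these libraries, which may be technical.

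LXRs are nuclear receptors that sense oxysterols and switch on genes for the export of cholesterol and the synthesis of fatty acids. MYLIP, also known as IDOL, is among their target genes. It encodes a ligase with a FERM domain and a RING domain that marks certain lipoprotein receptors with ubiquitin, so that they leave the plasma membrane and are degraded in lysosomes, and VLDLR and LRP8 are among its substrates. USP2 encodes a deubiquitinase known to oppose this. LRP1 is a large endocytic receptor for many ligands, SCARB1 takes up cholesteryl esters from high density lipoprotein, and SORL1 is a sorting receptor that carries its cargo between the Golgi and endosomes. This route acts on proteins, while the libraries hold RNA only, and no receptor protein was analysed here.

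The values are RPKM, the reads per kilobase of gene scaled between libraries by the authors. Within a gene the values move in steps of 1 read, from which read numbers were rebuilt, giving 30429384 to 41636379 reads per library (30610148 to 39384135 with DMSO and 30429384 to 41636379 with GW3965). On the first principal component of the recovered reads, which held 41.4% of the variance, DMSO library 1 and GW3965 libraries 1 and 2 had scores from -19.7 to -17.7 and the others at least -3.91. The keratin genes KRT8, KRT18 and KRT19 lay between 29.8 and 174 RPKM in the libraries and the prostate factor HOXB13 between 163 and 221 RPKM, while KLK3, which encodes prostate-specific antigen, was listed at 0 in every library and CDH1 had a mean of 0.285 RPKM. Of 5 leukocyte markers, 0 reached a mean of 0.5 RPKM, and their summed level was 0.304 to 0.519 RPKM with DMSO and 0.316 to 0.555 RPKM with GW3965. Of 3 endothelial markers 1 did (PECAM1, mean 0.604 RPKM), with summed levels of 0.584 to 0.672 RPKM and 0.411 to 0.765 RPKM, and of 4 fibroblast and smooth muscle markers 1 did (COL3A1, mean 3.47 RPKM), with 2.27 to 4.81 RPKM and 2.14 to 4.93 RPKM. These are bulk samples, in which fewer cells with an RNA and less of it per cell cannot be told apart.

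The bases before the start of MYLIP, the member that rose, are shown with those of LRP8 and VLDLR, the related receptors that MYLIP acts on and of which LRP8 was the more abundant RNA. They are the 250 bases before the RefSeq start on GRCh38.p14, written from 5′ to 3′ on the strand of the gene, at chr6:16128836-16129085 on the + strand for MYLIP, chr1:53328071-53328320 on the − strand for LRP8 and chr9:2621537-2621786 on the + strand for VLDLR. Capitals mark the GC box GGGCGG, which binds factors of the SP1 family, and the CCAAT box, each read on either strand.
MYLIP: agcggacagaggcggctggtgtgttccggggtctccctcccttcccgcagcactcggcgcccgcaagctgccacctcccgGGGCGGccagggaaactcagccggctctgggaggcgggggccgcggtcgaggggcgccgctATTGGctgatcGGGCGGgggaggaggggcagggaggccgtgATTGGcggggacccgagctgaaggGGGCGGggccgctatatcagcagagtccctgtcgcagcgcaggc
LRP8: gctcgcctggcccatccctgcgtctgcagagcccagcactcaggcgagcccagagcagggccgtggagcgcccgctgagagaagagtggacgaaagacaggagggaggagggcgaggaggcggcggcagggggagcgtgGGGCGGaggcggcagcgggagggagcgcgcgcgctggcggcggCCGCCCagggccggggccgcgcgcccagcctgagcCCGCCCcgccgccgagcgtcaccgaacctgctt
VLDLR: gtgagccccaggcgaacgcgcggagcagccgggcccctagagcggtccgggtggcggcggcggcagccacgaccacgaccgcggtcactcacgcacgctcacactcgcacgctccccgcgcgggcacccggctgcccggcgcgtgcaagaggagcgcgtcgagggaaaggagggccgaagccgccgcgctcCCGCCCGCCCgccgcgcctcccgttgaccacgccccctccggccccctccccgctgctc
RefSeq sequences were matched for 6 of the 7 genes, all but SCARB1. The window of USP2, at chr11:119364209-119364458, lies inside the span of the gene in GENCODE 29. That of SORL1, at chr11:121452064-121452313, reaches into the gene's span there. MYLIP held 3 GC boxes, from bases 170, 98 and 44 before its start, and 2 CCAAT boxes, read on the opposite strand from bases 109 and 68. LRP8 also held 3 GC boxes and VLDLR 2, which share bases with each other. The GC box occurs in 42.6% of all 35116 promoters of this length. The CCAAT box, present in 32.0% of them, was found in MYLIP and in none of the other 5 members searched. The DR4 element bound by LXR and its partner RXR, which is AGGTCA followed after 4 bases by AGGTCA, is held by 0.014% of all promoters and had 0 matches in the 6 sequences. The single AGGTCA, held by 12.1%, had 0 matches as well. These windows are short, and no match says only that these letters are not in them. The E-box CACGTG, present in 6.345% of promoters, was found once, in SORL1. The sequences were rich in G and C, with 73.6% in MYLIP, 77.2% in LRP8 and 78.8% in VLDLR against a median of 58% over all promoters.

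MYLIP rose with GW3965. The gene (ENSG00000007944, + strand) codes for protein and spans chr6:16129125-16148248 of GRCh38 in GENCODE 29, and it shares no exon bases there with another gene. With DMSO it stood at 2.18, 1.99, 2.17, 2.64 and 2.12 RPKM in libraries 1 to 5. With GW3965 it stood at 4.44, 3.64, 3.40, 3.59 and 3.86 RPKM in libraries 1 to 5. The groups did not overlap, all GW3965 values being higher, and the nearest were GW3965 library 3 and DMSO library 4. The reads behind these values were 202 to 309 per library with DMSO and 384 to 464 with GW3965.
The means were 2.22 ± 0.248 RPKM with DMSO and 3.79 ± 0.401 RPKM with GW3965 (SD, n = 5). On the scale of log2(RPKM + 0.1), the log2 fold change was 0.74 (SE 0.09), a 1.68-fold rise on that scale. Its 95% interval ran from 0.54 to 0.95 (limma with Benjamini-Hochberg adjustment, adjusted p = 0.00714). MYLIP ranked 17 by p among the 20402 genes whose mean reached 0.5 RPKM. Of these, 32 (0.157%) passed the threshold of 0.05, with 30 (0.147%) higher and 2 (0.0098%) lower with GW3965, and 1427 (6.99%) had an unadjusted p under 0.05. A two-sided exact permutation test of the library labels, with 252 labellings, gave p = 0.00794, the smallest that 5 libraries against 5 allow. Groups that did not overlap were found for 1.84% of all tested genes, and for 1.35% with GW3965 higher, as for MYLIP. Without the 3 libraries that stood apart on the first component, the log2 fold change was 0.68 and MYLIP did not pass the threshold (limma adjusted p = 0.101), with 3 and 4 libraries left.

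**Figure D1:**
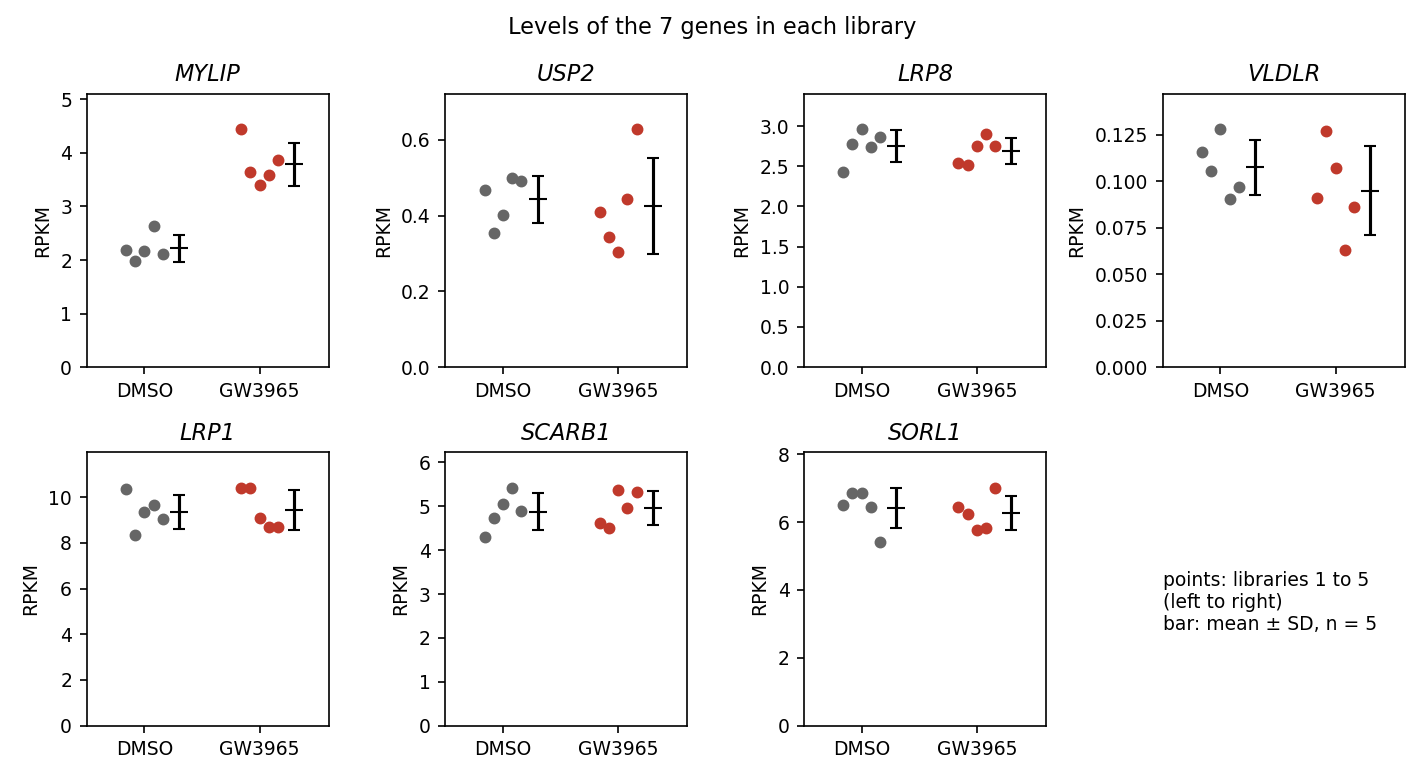
RPKM of the 7 genes in each library, with DMSO in grey and GW3965 in red, libraries 1 to 5 from left to right within a group, and the mean with its SD (n = 5) as a bar. MYLIP with GW3965 lay between 3.40 and 4.44 RPKM, above all DMSO libraries, which reached 2.64 RPKM, while the groups of the other 6 genes overlapped.

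None of the other 6 genes passed the threshold, and 0 of them had an unadjusted p under 0.05 by limma. LRP8, LRP1, SCARB1 and SORL1 were tested with the genes past the filter of 0.5 RPKM. USP2 and VLDLR had lower means and are given from a fit without that filter over 47537 genes, of which 21 (0.0442%) passed the threshold. So 5 of the 7 members passed the filter on low values, and for the other 2 the exact permutation test stands beside the fit. In limma's voom, run on the recovered reads, MYLIP was likewise the member that passed.

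USP2 (ENSG00000036672, chr11:119355215-119381726, − strand), the deubiquitinase gene, was low and did not differ detectably. With DMSO it stood at 0.467, 0.355, 0.402, 0.50 and 0.491 RPKM in libraries 1 to 5. With GW3965 it stood at 0.410, 0.343, 0.304, 0.443 and 0.628 RPKM, so the lowest and the highest value of all were both in this group. From 52 to 92 reads per library lay behind these values. The log2 fold change was -0.07 with a 95% interval from -0.50 to 0.36 (limma adjusted p = 0.974), and the exact permutation test gave p = 0.683. The interval leaves room for changes of either sign. In GENCODE 29, the antisense gene AP003396.3 shares 793 exon bases with USP2, or 17.5% of its exon bases, and 15.2% of its windows of 50 bases, the read length, occur in that gene.

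The receptors that MYLIP acts on differed in level and not detectably between conditions. LRP8 (ENSG00000157193, chr1:53242364-53328070, − strand), a receptor for reelin and lipoproteins, stood at 2.42, 2.78, 2.96, 2.73 and 2.86 RPKM with DMSO. With GW3965 it stood at 2.53, 2.52, 2.75, 2.90 and 2.76 RPKM. These values interleave, and library 1 with DMSO was the lowest of all. The 3 lowest values, from 2.42 to 2.53 RPKM, were those of the 3 libraries apart on the first component. The log2 fold change was -0.03 with a 95% interval from -0.19 to 0.13 (limma adjusted p = 0.974), and without those 3 libraries it was -0.02. The exact permutation test gave p = 0.667.
VLDLR (ENSG00000147852, chr9:2621834-2660053, + strand), which binds very low density lipoprotein and reelin, stood at 0.116, 0.106, 0.128, 0.0907 and 0.0972 RPKM with DMSO. With GW3965 it stood at 0.0909, 0.127, 0.107, 0.0633 and 0.0860 RPKM. It rested on 37 to 84 reads per library, and 4 of the 5 GW3965 libraries lay below the mean with DMSO. Its log2 fold change was -0.10 with a 95% interval from -0.41 to 0.22 (limma adjusted p = 0.94), and the exact permutation test gave p = 0.341. At this level the pseudocount of 0.1 RPKM is close to the value itself, so the fold change is understated, and voom, which adds 0.5 reads instead, gave -0.19, also without passing the threshold.

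LRP1 (ENSG00000123384, chr12:57128493-57213351, + strand), SCARB1 (ENSG00000073060, chr12:124776856-124882668, − strand) and SORL1 (ENSG00000137642, chr11:121452203-121633693, + strand) were the most abundant of the 7 RNAs. LRP1 lay between 8.34 and 10.3 RPKM with DMSO and between 8.69 and 10.4 RPKM with GW3965, and its 3 highest values, from 10.3 to 10.4 RPKM, were those of the 3 libraries apart on the first component. Its log2 fold change was 0.02 with a 95% interval from -0.16 to 0.19 (limma adjusted p = 0.988), and without those 3 libraries it was -0.04. SCARB1 lay between 4.30 and 5.42 RPKM with DMSO and between 4.51 and 5.38 RPKM with GW3965, and its 3 lowest values were in those same libraries, without which its log2 fold change was 0.06. With them its log2 fold change was 0.02 with a 95% interval from -0.14 to 0.19 (limma adjusted p = 0.981). SORL1 lay between 5.40 and 6.85 RPKM with DMSO and between 5.76 and 7.01 RPKM with GW3965, and its lowest value was in DMSO library 5 and its highest in GW3965 library 5. On the log2 scale SORL1 differed by -0.03 with a 95% interval from -0.21 to 0.15 (limma adjusted p = 0.976). The exact permutation test gave p = 0.794 for LRP1, 0.762 for SCARB1 and 0.683 for SORL1. For LRP8, LRP1, SCARB1 and SORL1 the 95% intervals ended at 0.13 to 0.19, below that of MYLIP, which began at 0.54.

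**Figure D2:**
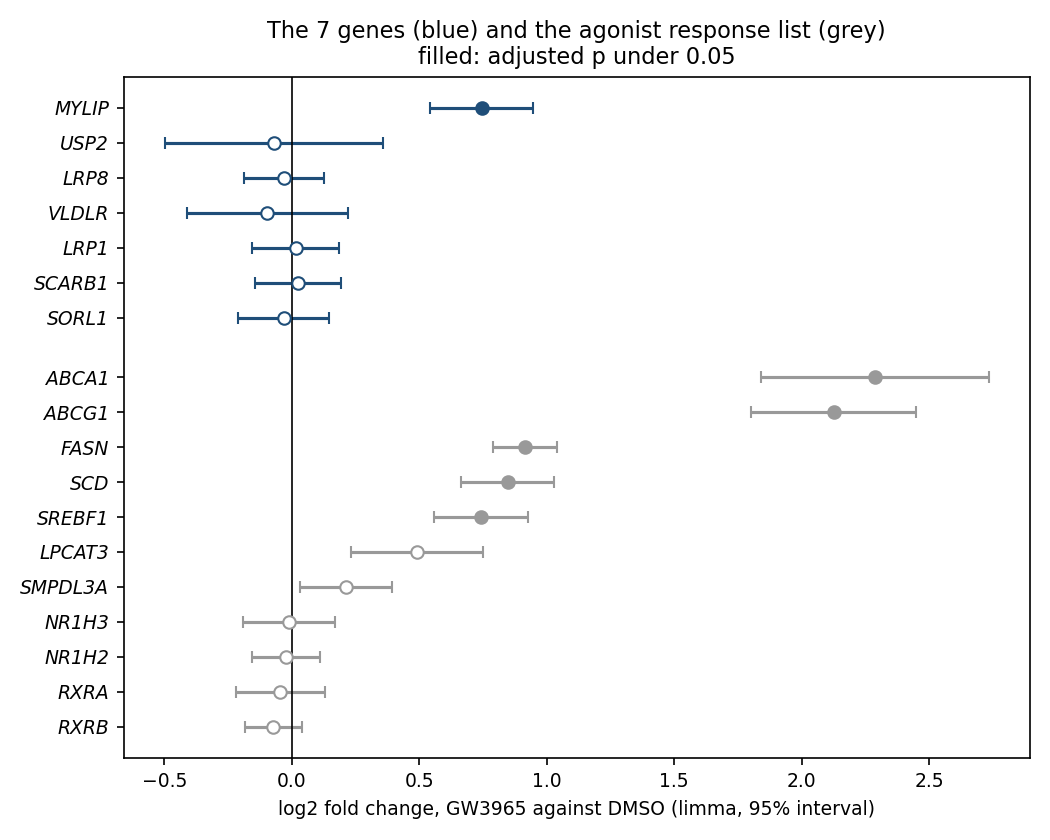
Log2 fold change between GW3965 and DMSO on the scale of log2(RPKM + 0.1), with the 95% interval of limma. The 7 genes are in blue, and 11 genes of the response to LXR agonists and of its receptors are in grey. Points are filled where the adjusted p was under 0.05. Among the 7 genes MYLIP at 0.74 is the filled point, and the intervals of the other 6 hold 0.

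The spread between libraries was set against the counting error of the reads. For MYLIP the coefficient of variation was 11.2% with DMSO and 10.6% with GW3965, against 6.42% and 4.90% from counting. For VLDLR with DMSO it was 13.8% against 12.6% from counting, so nearly the whole spread was of the size that counting gives. USP2 with DMSO was alike, with 14.1% against 11.9%. With GW3965 both were wider, at 25.2% for VLDLR and 29.5% for USP2, against 13.2% and 12.1% from counting. The 4 abundant receptor RNAs varied by 6.01 to 9.30%, which was 2.62 to 7.80 times the counting error.

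By level, the order of the means with DMSO was LRP1, SORL1, SCARB1, LRP8, MYLIP, USP2 and VLDLR. The DMSO libraries of SORL1 and SCARB1 overlapped, as did those of LRP8 and MYLIP, and no other neighbours in this order did. With GW3965, MYLIP stood above LRP8, and no neighbours overlapped. In a library with DMSO, the RPKM of MYLIP was 0.716 to 0.967 times that of LRP8. With GW3965 it was 1.24 to 1.75 times that of LRP8.
These levels rest on the gene lengths that the authors used, which the steps of the values give. For LRP8 it was 19668 bases against 10263 exon bases in GENCODE 29, for SCARB1 14887 against 7741, and for VLDLR 16507 against 9339. For the other 4 genes, the lengths differed by a ratio of 0.997 to 1.01. At the lengths of GENCODE 29, SCARB1 would stand at 9.38 RPKM with DMSO, next to LRP1 with 9.35, and LRP8 at 5.27 RPKM. MYLIP would then stay below LRP8 in both conditions, at 0.379 to 0.511 times its RPKM with DMSO and 0.654 to 0.927 times with GW3965. VLDLR would reach 0.19 RPKM with DMSO and remain the lowest. A gene's length is the same in every library, so it moves no fold change beyond the effect of the pseudocount.

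**Figure D3:**
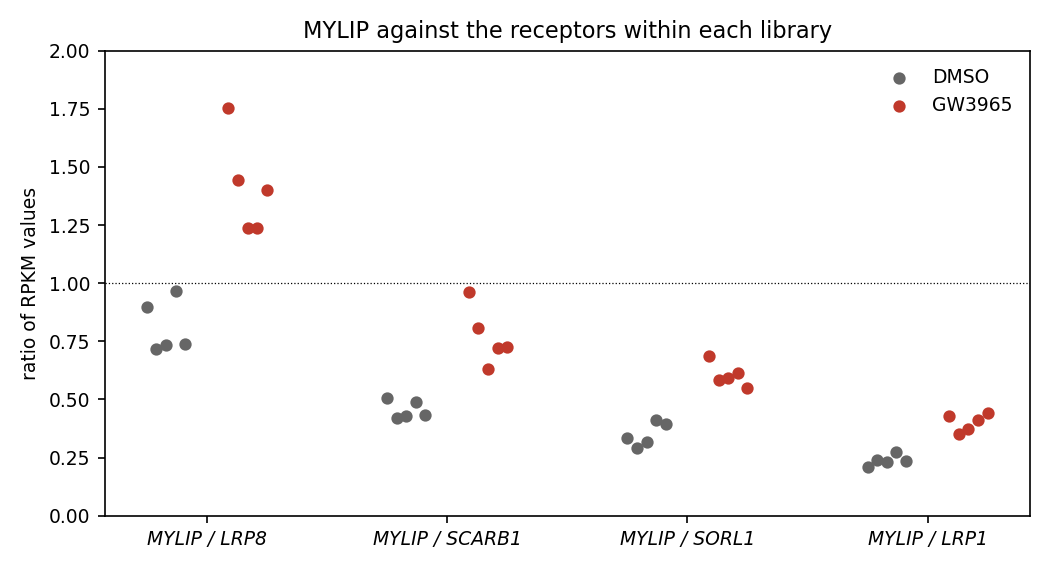
RPKM of MYLIP divided by the RPKM of a receptor in the same library, at the deposited gene lengths, with DMSO in grey and GW3965 in red and libraries 1 to 5 from left to right. The ratio to LRP8 lay between 0.716 and 0.967 with DMSO and between 1.24 and 1.75 with GW3965, and for the 4 receptors shown the groups did not overlap. The ratio to VLDLR, not drawn for its scale, did overlap. All ratios hold the same MYLIP values, whose own groups did not overlap, so they are not separate results.

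For VLDLR, the least abundant receptor, the ratio of MYLIP in RPKM was 16.96 to 29.13 with DMSO and 28.59 to 56.64 with GW3965, so the groups overlapped between DMSO library 4 and GW3965 library 2. For USP2, the deubiquitinase gene, they did not overlap. MYLIP was 4.31 to 5.61 times that of USP2 in RPKM with DMSO and 6.15 to 11.2 times with GW3965. The lowest ratio with GW3965 was in library 5, where USP2 was highest. The MYLIP ratio to SORL1 was 0.290 to 0.411 with DMSO and 0.550 to 0.689 with GW3965. To LRP1 it was 0.211 to 0.274 with DMSO and 0.351 to 0.444 with GW3965. All these ratios share the MYLIP values, so they largely repeat its rise and are not separate results.

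The reads of some members can be shared with overlapping genes. The kit keeps the strand of the RNA, and the strand setting of the counting is not given in the sources used here. VLDLR shares 738 exon bases in GENCODE 29 with VLDLR-AS1 on the opposite strand, which had 1 to 8 reads per library, and 7.43% of the windows of 50 bases of VLDLR occur in another gene. LRP8 shares exon bases with 3 antisense genes, of which AL355483.2 had at most 28 reads in a library, AL606760.1 at most 19, and AL355483.4 was listed at 0. Of its windows, 8.12% occur in another gene. LRP1 shares 59 exon bases with STAT6 and 112 with LRP1-AS, both on the opposite strand. For LRP1, SCARB1 and SORL1 at most 0.462% of the windows occur in another gene, and for MYLIP 0 of 3030 do.

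MYLIP was set beside 11 genes, which were known genes of the LXR agonist response and the receptor genes NR1H3, NR1H2, RXRA and RXRB. They were chosen with earlier results of these data known, so their counts are a description only. Of the 11, all tested, 5 rose (ABCA1, ABCG1, FASN, SCD and SREBF1) and 0 fell, where 0.157% of all tested genes passed the threshold. The median log2 fold change of the 11 was 0.49, against 0.00 over all tested genes. ABCA1 and ABCG1, which encode exporters of cholesterol, had log2 fold changes of 2.29 and 2.13 and stand above the interval of MYLIP. SREBF1, which encodes the factor SREBP1 of lipid synthesis, had 0.74, the value of MYLIP, and like MYLIP it did not pass without the 3 libraries apart on the first component. LPCAT3, an enzyme of phospholipid remodelling, had 0.49 and did not pass (limma adjusted p = 0.213). Its groups did not overlap, as was found for 1.84% of all tested genes. At the low end, RXRB, a partner receptor of LXR, had a log2 fold change of -0.07 (limma adjusted p = 0.853).

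Genes through which a receptor is ubiquitinated, taken up, recycled or degraded were listed with further receptors and with chaperones, ligands and signal partners. These lists were read against the shares of all tested genes. Of 99 genes in 8 lists, 81 reached the filter of 0.5 RPKM and 0 passed the threshold by limma, where the share of all tested genes was 0.157%, which is less than 1 gene in a list of this size. An unadjusted p under 0.05 was found for 6 of them, against 6.99% of all tested genes, and by voom 0 passed. Their median log2 fold change was 0.02. Of the 7 genes of the MYLIP machinery, 4 had positive values, from -0.06 for the deubiquitinase USP21 to 0.10 for USP8, a deubiquitinase of the endosome. The E2 enzymes UBE2D1, UBE2D2, UBE2D3 and UBE2D4, from which the ligase passes ubiquitin to its substrate, had log2 fold changes of 0.04, 0.02, 0.05 and -0.03.
Among the 17 endocytic adaptors and clathrin coat genes, values ran from -0.14 for AP2S1, a subunit of the AP2 adaptor, to 0.25 for GULP1, an adaptor of engulfment (limma adjusted p = 0.61). The 13 genes of ESCRT sorting, which carries ubiquitinated cargo into multivesicular bodies, ran from -0.03 for VPS4A to 0.25 for VPS37A. The 19 genes of retromer and recycling ran from -0.14 for COMMD1 to 0.10 for WASHC5, and SNX17, the sorting nexin that recycles LRP1, had -0.06.
Further receptors spanned a wide range of levels. Of 9 further receptors of the LRP family, 5 were tested, from -0.09 for LRP3 to 0.07 for LRP6, a coreceptor of WNT, and the megalin gene LRP2 had a mean of 0.0013 RPKM. Of the 4 other receptors with a VPS10 domain, SORT1 had -0.04 and SORCS2 0.22 (limma adjusted p = 0.61), and SORCS1 and SORCS3 were not tested. Of 16 scavenger receptors and SCARB1 partners, 6 were tested, from -0.21 for CXCL16, a scavenger receptor and chemokine (limma adjusted p = 0.579), to 0.37 for SCARA5, a ferritin receptor (limma adjusted p = 0.848), and CD36 had a mean of 0.0092 RPKM. Of 14 chaperones, ligands and signal partners, 12 were tested, from -0.14 for PLAUR, the urokinase receptor, to 0.32 for THBS1, a ligand of LRP1. THBS1 did not pass (limma adjusted p = 0.12), and with weights on the libraries it did. LRPAP1, the chaperone of this receptor family, had -0.02, and RELN, which encodes reelin, had 0.04 at a mean of 1.13 RPKM.

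**Figure D4:**
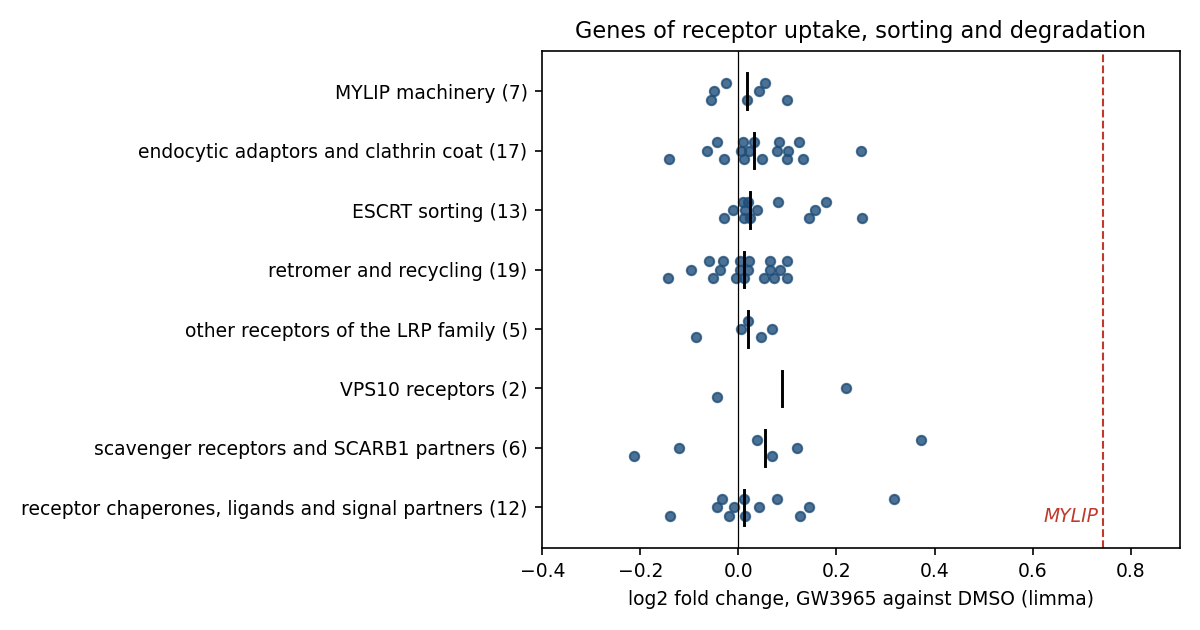
Log2 fold change between GW3965 and DMSO (limma) of the 81 tested genes of receptor uptake, sorting and degradation and of further receptors and their partners. A point is a gene, by list with the number tested in brackets and the list's median as a black line. The points lie between -0.21 and 0.37, left of the dashed line of MYLIP at 0.74.

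The genes whose pattern was most like that of MYLIP over the 10 libraries, by Pearson correlation of log2(RPKM + 0.1), included CPT1A, the gatekeeper enzyme of fatty acid oxidation in mitochondria, NBPF1, SCD, which desaturates fatty acids, and FASN, which makes them, with r between 0.968 and 0.970. All 4 passed the threshold, with log2 fold changes of 0.53, 0.33, 0.85 and 0.91. These correlations are descriptions over libraries that share the treatment, and NBPF1 belongs to a family of near-identical copies, so its reads are uncertain. For deviations from the group means, r with MYLIP was 0.733 for CPT1A, 0.668 for NBPF1, 0.669 for SCD and 0.706 for FASN. By those deviations the nearest genes were IGBP1P1, C1orf229, a gene without a symbol, LINC02210 and SIK2, with r from 0.890 to 0.953, and none of the 5 passed the threshold. The other members had r with MYLIP from -0.41 for VLDLR to 0.24 for LRP1 over the 10 libraries.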

How the data were processed

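RNA of PC3 cells was sequenced in 10 libraries, assigned to condition and number by the sample titles. Ribosomal RNA was depleted according to the protocol, while the sample records give polyA RNA. The submitters' processing notes name HISAT2 2.1.0, HTSeq 0.11.2 and hg38, whereas the paper's methods name the mouse genome mm10, and all gene identifiers are human. The authors deposited RPKM values, 1 column per library, with 15119 of 62656 genes at 0 throughout. The annotation release is not given in the sources used here.

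Read numbers were rebuilt per gene as the lowest integers proportional to its values, within 0.001 reads, for 100% of values above 0, and 967 genes with a common factor were scaled by lengths of GENCODE 29. Pairs of libraries differed by a chi-square of 6.63 to 72.1 per degree of freedom. Reads carry no molecular identifiers, so counting errors cover counting only.

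limma 3.58.1 in R 4.3.3 (lmFit, eBayes with a trend) was fitted to log2(RPKM + 0.1) of genes whose mean reached 0.5 RPKM, two-sided, Benjamini-Hochberg adjusted. The procedure was tested on simulated data. Alternatives were pseudocounts of 1 and 0.01, no filter, at least 1 RPKM, the replicate number as a block, quantile normalization, no trend, library weights, voom on recovered reads, the first principal component as a covariate and the loss of each library. The loss of 3 libraries together was chosen after seeing the data.

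The members and lists were chosen with earlier results of these data known. Named were the members, listed genes past the threshold or at either end of a list, the 5 genes most like MYLIP by either correlation, and genes sharing exon bases with a member. Further genes named were chosen by their role after their values were seen. A result that this rule would name is not reported here. Promoters were taken from RefSeq (GRCh38.p14), positions and lengths from GENCODE 29.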

Additional observations from a re-analysis of the deposited data

Results flagged for a closer look

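Within the groups of 5 libraries, 2 of 14 had a library far from the others by Dixon's ratio of the gap to the range, with a limit of 0.71, and chance flags about 1 group in 20. For MYLIP with DMSO, library 4 stood at 2.64 RPKM with a ratio of 0.711. Without it the log2 fold change was 0.81 (limma adjusted p = 0.00335). For SORL1 with DMSO, library 5 stood at 5.40 RPKM with a ratio of 0.714. Without it the log2 fold change was -0.092 (limma adjusted p = 0.975).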

How the results depend on the processing

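MYLIP passed the threshold in 19 of 21 alternatives and was higher with GW3965 in all 21, with a log2 fold change from 0.57 (pseudocount of 1) to 0.81 and from 0.69 to 0.81 over the loss of each library. It did not pass with the replicate number as a block (log2 fold change 0.7444, limma adjusted p = 0.0724) or without the 3 libraries apart on the first component (0.6788, adjusted p = 0.101), where the count of members past the threshold was 0. Both fits leave fewer degrees of freedom, and the cause was not tested. The correlation of deviations between same-numbered libraries lay between -0.138 and 0.16, and only DMSO library 4 was closest to the GW3965 library of its own number. These values do not settle whether the replicate number pairs the libraries. No other member passed in any alternative. The 5 fold changes of LRP1 that turned negative were -0.002814 with quantile normalization, -0.04112 without the 3 libraries apart, and -0.02419, -0.02004 and -0.01907 without DMSO library 2, GW3965 library 1 and GW3965 library 2. Those of SCARB1 were -0.01898, -0.0051 and -0.001852 without DMSO library 1, GW3965 library 3 and GW3965 library 5. USP2 turned to 0.01774 without GW3965 library 3 and to 0.02471 without the 3 libraries apart. The lowest and highest values over the loss of each library were -0.02419 and 0.05242 for LRP1, -0.01898 and 0.0629 for SCARB1, and -0.1949 and 0.01774 for USP2. VLDLR, LRP8 and SORL1 kept their sign in all alternatives. The genes past the threshold over all tested genes numbered 32, against 21 without a filter, 16 with the replicate block, 20 without a trend, 56 with library weights, 63 with voom, 83 with the first component as a covariate, 18 without the 3 libraries apart, and 17 to 38 over the loss of each library, the lowest without GW3965 library 2 or 4. Of the listed genes 4 to 6 passed, with SREBF1 lost under the replicate block and without the 3 libraries apart, and THBS1 gained with library weights. The exact permutation tests kept their side of 0.05 on every scale. USP2 and VLDLR rest on at most 92 reads in a library, with a spread near the counting error with DMSO and above it with GW3965.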
